A study of Mus musculus with 4 samples.

Results

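The thioredoxin and peroxiredoxin system was described across DHODH KO and WT 4T1 cells through 10 genes chosen by name, Txn1, Txn2, Txnrd1, Txnrd2, Srxn1 and Prdx1 to Prdx5, out of 16695 genes in the deposited table. RNA-seq of the mouse breast cancer cell line 4T1 gave 2 DHODH KO libraries and 2 WT libraries. DHODH, dihydroorotate dehydrogenase, is the mitochondrial enzyme of pyrimidine synthesis that passes electrons to ubiquinone. How the knockout was made is not labelled, nor is whether the KO cells were a clone. Replicates are not stated to be separate cultures, so a p-value here measures the spread between libraries, which may be technical. The comparison addressed how gene expression differs between the genotypes.

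Thioredoxins are small proteins that reduce disulfide bonds in other proteins. They are in turn reduced by thioredoxin reductases, selenoproteins that draw electrons from NADPH. Peroxiredoxins are abundant peroxidases that remove hydrogen peroxide through a reactive cysteine and are mostly recharged by thioredoxin. Sulfiredoxin, the product of Srxn1, repairs the peroxiredoxin cysteine when peroxide has over-oxidised it. Cytosol and mitochondria hold separate sets of these proteins, and several of the cytosolic genes are textbook targets of NRF2, the transcription factor of the oxidative stress response.

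All 10 genes lay above the expression minimum of 1 FPKM (reads per kilobase of gene and library depth, averaged over the 4 libraries). Txn1, Txnrd1, Txnrd2, Srxn1, Prdx1 and Prdx4 were higher in KO, Prdx3 and Prdx5 were lower, and Txn2 and Prdx2 did not pass the test. Thus 6 members rose and 2 fell at an adjusted p under 0.05 (limma-trend on log2(FPKM + 1), two-sided, Benjamini-Hochberg over 10170 tested genes). Of all tested genes 64.7% passed, 35.6% as higher and 29.1% as lower in KO, so 8 called members of 10 is a share not far from that background. The same 6 and 2 were counted without DHODH KO replicate 2. The median log2 change of the members was 0.33, against 0.039 over all tested genes.

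Recovered whole reads summed to 28133343 and 28079208 in the KO libraries, against 25750573 and 25201213 in WT. Dhodh itself measured 9.67 and 8.69 FPKM in the KO libraries, against 10.9 and 10.3 FPKM in the WT libraries (log2 change -0.19 ± 0.068, SE, adjusted p = 0.0425, lost without WT replicate 1, WT replicate 2 or DHODH KO replicate 2, at 0.170, 0.0597 and 0.200, and with no filter, rescaling to equal sums or no trend, at 0.119, 0.0532 and 0.0535). A KO level of 0.87 of WT does not by itself show the knockout, and where the gene was altered is not labelled, so the libraries are called DHODH KO by their labels. Of 8 mammary epithelial markers 7 exceeded 1 FPKM in every library, and the exception was Cldn7. DHODH KO replicate 2 stood apart by transcripts of other tissues. Heart muscle markers without Tnnt2, which was high in all libraries and was set aside after its values were seen, reached a sum of 88.2 FPKM there and of 0.045 FPKM in the other KO library, against 0.0959 and 0.305 FPKM in WT. Myh6, Myl2 and Tnni3 were listed at 0 in the other 3 libraries. Liver markers were not confined to DHODH KO replicate 2. They summed to 26.3 and 39.9 FPKM in KO replicates 1 and 2, against 27.5 and 22.9 FPKM in WT. Of 8 liver markers, 6 and 7 exceeded 1 FPKM in the KO libraries, against 6 and 4 in WT. Leaving out DHODH KO replicate 2 does not remove these, and their source was not tested. Without DHODH KO replicate 2 the log2 change was 0.40 for Txn1, 0.53 for Prdx1, 0.43 for Prdx4 and -0.81 for Prdx3. With all libraries it was 0.46, 0.58, 0.46 and -0.77. The values of Prdx2 and Prdx5 without that library stand beside their results. In bulk RNA, fewer cells of a type and less RNA per cell cannot be told apart.

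**Figure D1:**
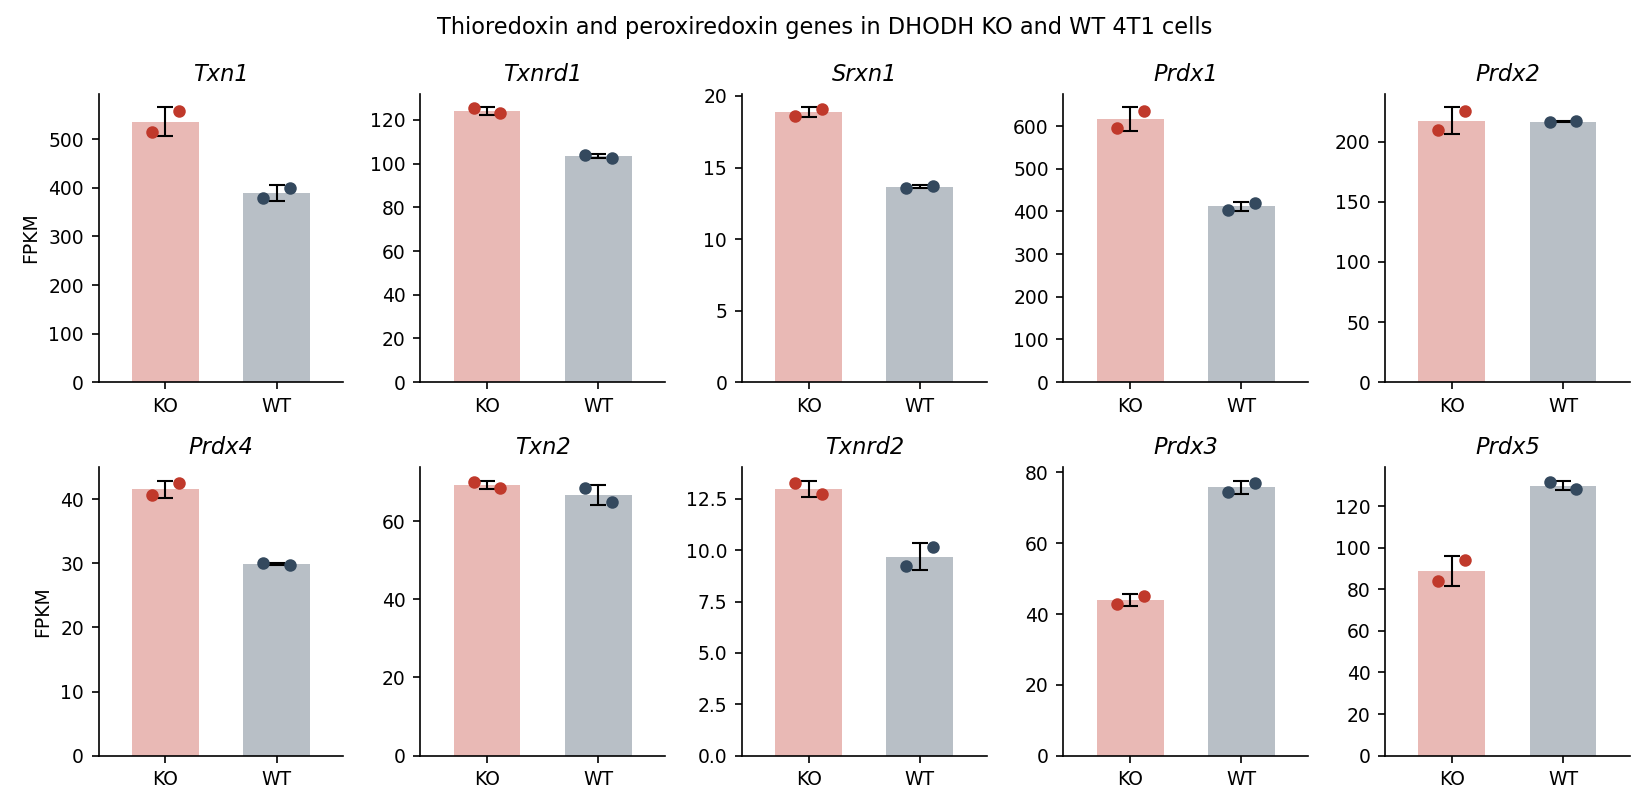
FPKM of the 10 members in DHODH KO and WT cells, each panel with its own axis from 0. Bars are means, error bars SD (n = 2 per genotype) and points libraries; Prdx3 and Prdx5 are the panels in which both KO points lie below both WT points, and the points of Prdx2 overlap.

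The promoters of 4 members are shown: Prdx1, Srxn1 and Txnrd1, which were higher in KO, and Prdx3, which was lower. Prdx1, Srxn1 and Txnrd1 are also the only members with a match to TGACNNNGC, a motif described below. For Txnrd1 only the window with the match is shown. Txn1, Prdx4 and Txnrd2 were higher in KO too, but had no match and are not shown. The display therefore does not tie the motif to direction. Each is the RefSeq window of 250 bases before to 50 after an annotated start in GRCm38.p6, 5′ to 3′ on the strand of the gene. This build is not the GRCm39 build of the deposited values, so the positions belong to these sequences only. The windows are chr4:116685349-116685648 for Prdx1 (plus strand), chr2:152105274-152105573 for Srxn1 (plus strand), chr10:82858956-82859255 for the middle of 3 annotated starts of Txnrd1 (plus strand) and chr19:60874489-60874788 for Prdx3 (minus strand). Capitals mark matches on either strand to TGACNNNGC, the core of the antioxidant response element, and to TGAGNNNGC, its variant, which was added after the promoters were read.
Prdx1: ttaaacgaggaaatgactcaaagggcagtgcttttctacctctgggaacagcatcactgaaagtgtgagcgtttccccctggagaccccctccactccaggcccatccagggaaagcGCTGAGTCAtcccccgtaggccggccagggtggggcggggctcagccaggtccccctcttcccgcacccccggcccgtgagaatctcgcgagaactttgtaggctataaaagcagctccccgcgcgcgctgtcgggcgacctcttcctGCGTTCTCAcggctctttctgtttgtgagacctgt
Srxn1: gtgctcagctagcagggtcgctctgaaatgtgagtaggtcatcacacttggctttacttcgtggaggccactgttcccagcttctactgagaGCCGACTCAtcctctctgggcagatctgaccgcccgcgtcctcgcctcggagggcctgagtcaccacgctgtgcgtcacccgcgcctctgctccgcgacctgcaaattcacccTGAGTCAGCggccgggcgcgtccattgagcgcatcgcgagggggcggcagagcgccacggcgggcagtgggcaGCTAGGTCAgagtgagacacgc
Txnrd1: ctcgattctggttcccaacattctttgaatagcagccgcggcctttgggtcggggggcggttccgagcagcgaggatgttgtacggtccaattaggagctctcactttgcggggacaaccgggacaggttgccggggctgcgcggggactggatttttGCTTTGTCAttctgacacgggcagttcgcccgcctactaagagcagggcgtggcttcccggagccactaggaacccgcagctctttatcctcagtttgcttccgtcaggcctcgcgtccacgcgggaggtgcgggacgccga
Prdx3: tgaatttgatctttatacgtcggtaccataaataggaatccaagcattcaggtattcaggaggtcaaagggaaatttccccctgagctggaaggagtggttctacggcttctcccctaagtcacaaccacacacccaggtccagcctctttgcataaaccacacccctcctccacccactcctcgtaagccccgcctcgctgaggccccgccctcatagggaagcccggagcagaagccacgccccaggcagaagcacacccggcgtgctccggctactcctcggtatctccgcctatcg

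The 10 members have 12 windows in all, of which Txnrd1 has 3. TGACNNNGC was found in 1 window each of Prdx1, Srxn1 and Txnrd1, that is 3 of 12, against 14.5% of the windows of tested genes and 12.4% of all 32851 promoter windows. The match in Prdx1 reads TGACTCAGC on the opposite strand, and its leftmost base in the window shown lies 133 bases before the start. The match in Srxn1 lies after the start, with its leftmost base at position 29, and that in Txnrd1 has its leftmost base 92 bases before the start. TGAGNNNGC was found in Prdx1, Srxn1 and Txn2 and in 19.8% of the windows of tested genes and 17.6% of all windows. In Srxn1 it reads TGAGTCAGC, 45 bases before the start. The matches do not overlap one another. Prdx3, Prdx5, Prdx2, Prdx4, Txn1 and Txnrd2 held neither motif in these windows, and either motif was present in 4 of the 12 member windows, near the 31.3% of the windows of tested genes, and in 27.8% of all windows. A match is a string of letters, not a shown binding site.

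The cytosolic thioredoxin pair was higher in KO. Txn1 (Entrez Gene 22166), the cytosolic thioredoxin, had 516 and 557 FPKM in the KO libraries, against 378 and 401 FPKM in the WT libraries. Both KO values exceeded both WT values, and the mean level was 1.38-fold higher in KO, at 537 ± 29.5 FPKM against 390 ± 15.7 FPKM in WT (SD, n = 2 each). The log2 change was 0.46 ± 0.047 (SE) with a limma adjusted p of 1.5e-04. Txnrd1 (Entrez Gene 50493), the cytosolic thioredoxin reductase whose promoter is shown above, had 125 and 123 FPKM in KO, against 104 and 103 FPKM in WT. Its groups did not overlap, and its increase was the smallest among the members called higher, 1.20-fold (log2 change 0.26 ± 0.034, adjusted p = 4.7e-04). Larger absolute changes than that of Txnrd1 were seen in 49.9% of tested genes.

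Srxn1 (Entrez Gene 76650), the sulfiredoxin gene, had 18.6 and 19.1 FPKM in KO, against 13.6 and 13.7 FPKM in WT. The libraries of each genotype lay close together, and the KO mean was 1.38-fold that of WT (log2 change 0.44 ± 0.049, limma adjusted p = 2.1e-04). These values rested on 2393 and 2457 recovered reads in KO and on 1638 and 1622 in WT.

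Prdx1, the most abundant of the 5 peroxiredoxin transcripts, showed the largest increase among the 10 members. Prdx1 (Entrez Gene 18477), a cytosolic peroxidase, had 597 and 636 FPKM in KO, against 405 and 419 FPKM in WT. The mean was 616 ± 28.0 FPKM in KO and 412 ± 10.3 FPKM in WT (SD, n = 2 each), 1.5-fold higher in KO, with a log2 change of 0.58 ± 0.041 and a limma adjusted p of 2.8e-05. Among 10170 tested genes ranked by level, Prdx1 stood at 85 and 82 in the KO libraries, against 131 and 129 in the WT libraries. Whole reads could not be recovered for Prdx1, so it has no value in the fit on reads.

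Prdx2 (Entrez Gene 21672), the other abundant cytosolic peroxiredoxin gene and a major protein of red blood cells, had 209 and 225 FPKM in KO, against 216 and 217 FPKM in WT. The KO values lay on either side of the WT values. The log2 change was 0.0036 ± 0.042 (limma adjusted p = 0.946), with a 95% interval of -0.095 to 0.10. Its sign turned negative without DHODH KO replicate 2 (-0.049, adjusted p = 0.241). Red blood cell markers summed to 0.344 and 14.0 FPKM in KO replicates 1 and 2, against 0.236 and 0.774 FPKM in WT, with 0 and 4 of 6 markers above 1 FPKM in the KO libraries and 0 in each WT library. Their part in the value was not tested. Set against the other peroxiredoxins in the same libraries, Prdx1 made up 61.3% and 61.0% of the summed FPKM of the 5 peroxiredoxins in KO, against 47.2% and 48.1% in WT, and Prdx2 21.5% and 21.6% in KO, against 25.2% and 24.9% in WT.

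Prdx4 (Entrez Gene 53381), the peroxiredoxin of the endoplasmic reticulum, which uses peroxide to oxidise protein disulfide isomerases, was higher in KO. It had 40.6 and 42.5 FPKM in KO, against 30.0 and 29.7 FPKM in WT. The groups were well apart, with a 1.39-fold higher mean in KO (log2 change 0.46 ± 0.043, limma adjusted p = 9.5e-05).

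**Figure D2:**
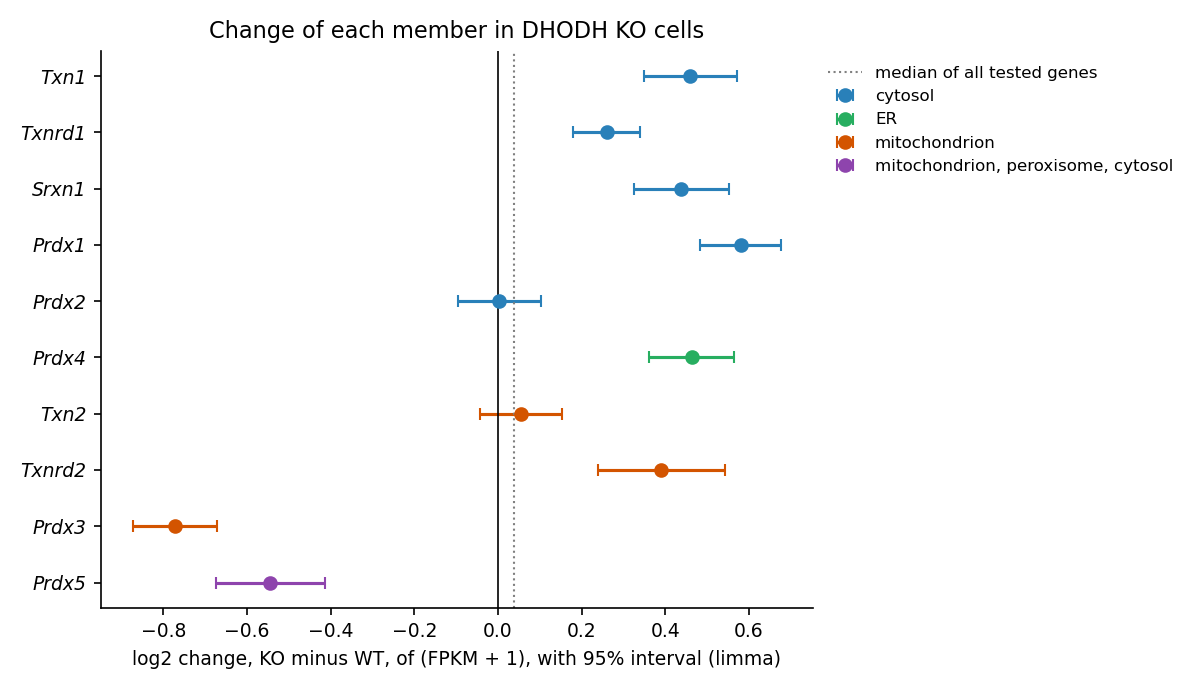
Log2 change of each member, KO minus WT, on the log2(FPKM + 1) scale with its 95% interval from limma, coloured by the textbook location of the protein. The intervals of Prdx2 and Txn2 include 0, those of Prdx3 and Prdx5 lie below it, and those of the other 6 members lie above it.

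Genes of the mitochondrial set went in different directions. Prdx3 (Entrez Gene 11757), the peroxiredoxin of the mitochondrial matrix, had 42.9 and 45.1 FPKM in KO, against 74.5 and 77.1 FPKM in WT. It showed the largest change of the 10 members, with a mean of 44.0 ± 1.58 FPKM in KO and 75.8 ± 1.85 FPKM in WT (SD, n = 2 each), 1.72-fold higher in WT. The log2 change was -0.77 ± 0.043 (limma adjusted p = 9.7e-06), and 8.01% of tested genes had a larger absolute change. By level, Prdx3 ranked at 1667 and 1597 in the KO libraries, against 866 and 838 in the WT libraries.

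Prdx5 (Entrez Gene 54683), a peroxiredoxin found in mitochondria, peroxisomes and the cytosol, also fell in KO. It had 83.8 and 94.0 FPKM in KO, against 131 and 128 FPKM in WT, so its KO libraries were farther apart than its WT libraries but did not reach them. Its mean was 88.9 ± 7.21 FPKM in KO and 130 ± 2.34 FPKM in WT, 1.46-fold higher in WT (log2 change -0.54 ± 0.055, limma adjusted p = 1.4e-04, and -0.63 without DHODH KO replicate 2). Trmt112, a methyltransferase cofactor gene whose span overlaps that of Prdx5, had 49.2 and 48.5 FPKM in KO, against 48.89 and 49.97 FPKM in WT, and did not pass the test (log2 change -0.016, adjusted p = 0.728). No source used here gives how the authors' counting treated strand, so reads within that overlap cannot be told apart.

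The mitochondrial thioredoxin gene did not pass the test, and that of its reductase rose. Txn2 (Entrez Gene 56551), the mitochondrial thioredoxin that recharges Prdx3, had 70.0 and 68.6 FPKM in KO, against 68.5 and 64.9 FPKM in WT. Its KO values lay just above its WT values, and the log2 change was 0.055 ± 0.041 (limma adjusted p = 0.277) with a 95% interval of -0.043 to 0.15. Txnrd2 (Entrez Gene 26462), the mitochondrial thioredoxin reductase and the lowest of the 10 members, had 13.3 and 12.7 FPKM in KO, against 9.21 and 10.2 FPKM in WT. It was 1.34-fold higher in KO (log2 change 0.39 ± 0.064, adjusted p = 0.00144).

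The levels of all 10 members, per length in FPKM, had the order Prdx1, Txn1, Prdx2, Prdx5, Txnrd1, Prdx3, Txn2, Prdx4, Srxn1, Txnrd2 in WT by their means. In KO, Txnrd1 stood above Prdx5 and Txn2 above Prdx3, with no overlap between the libraries of either pair. In WT the libraries of Prdx1 (405 and 419 FPKM) and Txn1 (378 and 401 FPKM) lay close together, and so did those of Prdx3 and Prdx4 in KO. Both KO values lay above both WT values for 7 members and below them for Prdx3 and Prdx5. Among all tested genes the KO values lay above in 45.6% and below in 37.9%, so 83.4% did not overlap.

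The balance between cytosolic and mitochondrial transcripts was described by the ratio of FPKM within each library. Prdx1 over Prdx3 was 13.9 and 14.1 in the KO libraries, against 5.43 and 5.44 in the WT libraries, a log2 difference of 1.37. Prdx2 over Prdx3 was 4.89 and 5.0 in KO, against 2.90 and 2.82 in WT. For both ratios the replicates lay closer together than the genotypes. Txn1 over Txn2 was 7.36 and 8.13 in KO, against 5.52 and 6.18 in WT. Txnrd1 over Txnrd2 ran the other way, at 9.44 and 9.67 in KO, against 11.3 and 10.1 in WT. Prdx3 over Txn2, added after the values were seen, was 0.612 and 0.658 in KO, against 1.09 and 1.19 in WT, so Prdx3 was the lower transcript of that pair in KO and the higher in WT. Prdx5 over Txn2, also added, was 1.20 and 1.37 in KO, against 1.92 and 1.98 in WT. For each of these 6 ratios the genotypes did not overlap, and the two-sided exact permutation test gave p = 0.333, the smallest that 2 against 2 libraries allow, so none can pass 0.05.

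The peroxiredoxin transcripts together were somewhat more abundant in KO, and their make-up differed. The 5 genes summed to 973 and 1043 FPKM in KO, against 857 and 871 FPKM in WT. Prdx3 and Prdx5 together summed to 127 and 139 FPKM in KO, against 206 and 205 FPKM in WT. Prdx3 made up 4.4% and 4.32% of the sum in KO, against 8.69% and 8.85% in WT, and Prdx5 8.61% and 9.01% in KO, against 15.3% and 14.7% in WT. The share of Prdx4 was 4.17% and 4.07% in KO, against 3.50% and 3.41% in WT.

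**Figure D3:**
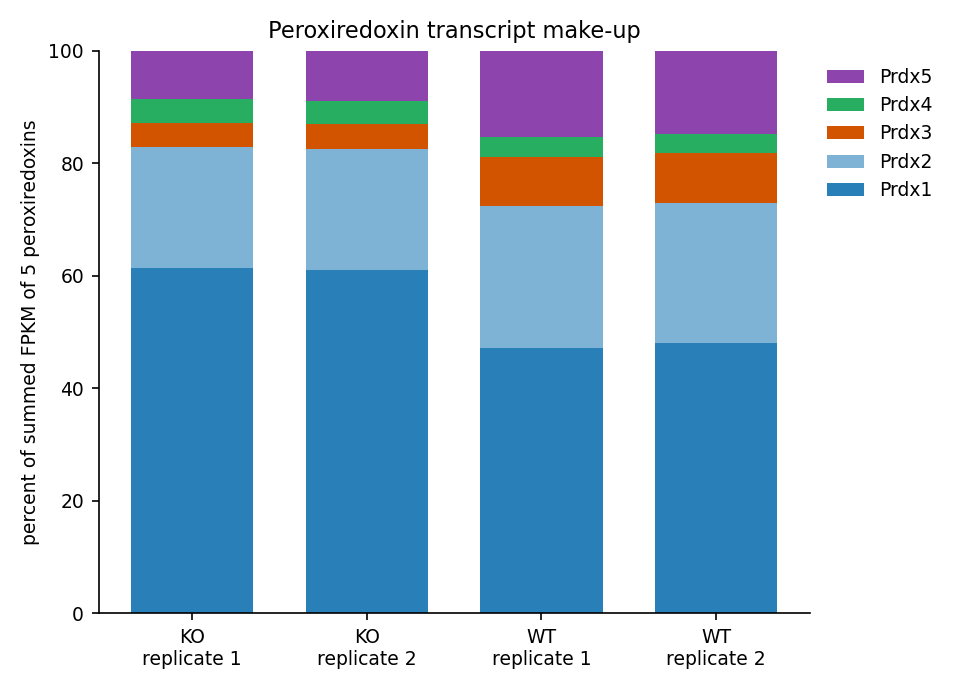
Share of each peroxiredoxin in the summed FPKM of Prdx1 to Prdx5, in percent, for each DHODH KO and WT library. Prdx1 takes 61.3% and 61.0% in the KO libraries, against 47.2% and 48.1% in the WT libraries, and the bands of Prdx3 and Prdx5 are narrower in KO.

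Outside the members, Prdx6, a peroxiredoxin that is recharged by glutathione, had 140 and 144 FPKM in KO, against 121 and 125 FPKM in WT (log2 change 0.20 ± 0.036, limma adjusted p = 0.00245). The list counts that follow stand beside 35.6% of all tested genes higher and 29.1% lower in KO. A list of Txnip, its arrestin relatives, the stress kinases Map3k5 and Map3k6 and the sestrins had 6 of 9 tested genes up and 1 down, with a median log2 change of 0.53. The number up was 4 at the lowest over the settings tried, as Map3k6 (adjusted p = 0.0451) lost its call with no filter, with median-ratio scaling and without WT replicate 1, WT replicate 2 or DHODH KO replicate 1, at adjusted p-values between 0.0578 and 0.198, and Sesn2 with no filter (0.0573). Txnip, which encodes the arrestin-like protein that binds and inhibits thioredoxin, had 48.8 and 53.8 FPKM in KO, against 26.9 and 26.0 FPKM in WT, a 1.94-fold higher mean in KO (adjusted p = 1.3e-05). Its relatives Arrdc3 and Arrdc2 rose 3.14-fold and 1.59-fold, and Sesn3, a stress-induced sestrin gene, rose 1.85-fold. Arrdc4, another relative, was not called (log2 change 0.075, limma adjusted p = 0.609), nor was Sesn1 (-0.061, adjusted p = 0.560). Map3k5, the kinase ASK1 that reduced thioredoxin holds inactive, had 3.28 and 3.63 FPKM in KO, against 4.63 and 4.66 FPKM in WT (log2 change -0.34, adjusted p = 0.00634).

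Of 12 tested thioredoxin-like and glutaredoxin genes, 3 rose and 7 fell in KO, with a median log2 change of -0.24. Nxn, the nucleoredoxin gene, had 12.4 and 12.4 FPKM in KO, against 21.3 and 21.0 FPKM in WT, 1.70-fold higher in WT. Txnl4a, a thioredoxin-fold part of the spliceosome, and Txnl1, a cytosolic thioredoxin-like protein gene, had log2 changes of -0.60 and -0.36, and Txndc12, of the endoplasmic reticulum, rose by 0.42. The adjusted p-values of these 4 genes lay between 2.2e-05 and 4.0e-04. The number that fell was 5 at the lowest when 1 library was left out, as Txnl4b and Glrx2 lost their calls without WT replicate 2 or DHODH KO replicate 1. Of 3 tested methionine sulfoxide reductase genes, whose products rely on thioredoxin, limma called 0, with 1 at an unadjusted p under 0.05 (Msrb3, adjusted p = 0.0664), and voom on recovered reads also called 0. Msrb1 was called as lower without WT replicate 1 or DHODH KO replicate 2 (adjusted p = 0.00884 and 0.0345).

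Among other enzymes against peroxide and superoxide, 5 of 8 tested genes rose in KO and 1 fell, with a median log2 change of 0.26. Gpx4, the selenium peroxidase of lipid hydroperoxides, had 424 and 454 FPKM in KO, against 239 and 231 FPKM in WT, 1.87-fold higher in KO (limma adjusted p = 5.0e-06). Cat, the peroxisomal catalase gene, Sod1, the cytosolic superoxide dismutase gene, and Gsr, the glutathione reductase gene, rose by 0.36, 0.23 and 0.29 on the log2 scale. Gpx1, an abundant cytosolic peroxidase gene, rose by 0.19. Sod2, the superoxide dismutase of the mitochondrial matrix, was the gene that fell (log2 change -0.15, adjusted p = 0.0215), and it lost its call without WT replicate 1, WT replicate 2 or DHODH KO replicate 1 (adjusted p = 0.0781, 0.104 and 0.0752). Gpx3 was present in 1 library only beyond traces, at 0.0164 and 5.53 FPKM in KO replicates 1 and 2, against 0.0350 and 0 FPKM in WT.

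Regulators of NRF2 were higher in KO in 8 of 9 tested genes, with none lower and a median log2 change of 0.50. Nfe2l2, the NRF2 gene, had 45.6 and 43.5 FPKM in KO, against 31.9 and 30.6 FPKM in WT, 1.43-fold higher in KO (limma adjusted p = 8.9e-05). Keap1, the adaptor that targets NRF2 for breakdown, rose 1.29-fold, and Bach1, a repressor at the same DNA element, 1.63-fold. Maff, a small MAF partner gene, and Sqstm1, whose product binds KEAP1, rose 2.15-fold and 1.74-fold. Cul3, the ubiquitin ligase scaffold, was not called (log2 change 0.032, adjusted p = 0.528). Of 18 tested NRF2 targets outside the members, 13 rose and 4 fell, with a median log2 change of 0.56. The called genes with the smallest adjusted p were Ephx1, Ftl1, Gstm1 and Nqo1, with log2 changes of 2.61, 1.15, 2.21 and 1.36. Each of these exceeded the 0.58 of Prdx1, the largest increase among the members, but a choice by small adjusted p favours large changes. The median of the list was 0.56, against a median of 0.33 for the members and 0.039 over all tested genes. The targets that fell were G6pdx, Taldo1, Tkt and Abcc1, most of them named after their values were seen, and the log2 change of Taldo1 was -0.25 with all libraries and -0.16 without DHODH KO replicate 2.

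Lists of genes that supply NADPH, the source of electrons for thioredoxin reductases, held more members lower than higher in KO. In the cytosolic list 2 of 7 tested genes rose and 4 fell (median log2 change -0.20). In the mitochondrial list 2 of 7 rose and 4 fell (median -0.22). Me1, Pgd and G6pdx of the cytosolic list were also counted among the NRF2 targets, so those lists are not separate. The folate enzyme gene Mthfd1 fell by 0.82 and the NAD kinase gene Nadk by 0.33 on the log2 scale, whereas Me1, the cytosolic malic enzyme gene, had 31.9 and 31.9 FPKM in KO, against 15.9 and 15.9 FPKM in WT. Among the mitochondrial genes Glud1, the glutamate dehydrogenase gene, and Mthfd2l fell by 0.55 and 0.71, and Nadk2, the mitochondrial NAD kinase gene, rose by 0.43. The limma adjusted p-values of these 6 genes lay between 4.7e-06 and 9.8e-04. The calls of Nnt, the proton-driven transhydrogenase gene, and of Pgd depended on the setting. Both were lost with median-ratio scaling (adjusted p = 0.112 and 0.0620), no trend (0.0734 and 0.0666) and voom on recovered reads (0.108 and 0.0681). Nnt was also lost with no filter (0.0799). Leaving out WT replicate 1 or WT replicate 2 lost both calls. The log2 change of Nnt was 0.14 with all libraries and 0.092 without DHODH KO replicate 2, where its call was lost too.

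Thioredoxin reductases carry selenocysteine, and genes of selenoprotein synthesis were mixed, with 3 of 9 tested genes up, 3 down and a median log2 change of 0.097. These counts depended on the setting, at 2 up and 2 down with no filter and 2 up and 4 down with median-ratio scaling. Secisbp2, which encodes the protein that binds selenocysteine insertion elements, and Sephs1 fell by 0.58 and 0.47. Scly, the selenocysteine lyase gene, and Trnau1ap rose by 0.62 and 0.43 on the log2 scale. Other selenoproteins had 6 of 11 tested genes up and 4 down, but 3 up without DHODH KO replicate 2 and 2 up without WT replicate 2. Selenop, at 1.34 and 3.15 FPKM in KO, against 1.02 and 0.898 FPKM in WT, lost its call without DHODH KO replicate 2 (log2 change 0.26, adjusted p = 0.121, against 0.67 with all libraries) and without WT replicate 2 (adjusted p = 0.0670). The call of Selenop was also lost with no filter, no trend or robust variance moderation (limma adjusted p = 0.205, 0.0735 and 0.0719). The smallest adjusted p-values of that list, 1.6e-04 to 0.0032, belonged to Selenoh, Selenon, Selenof and Selenos. Selenon and Selenof rose by 0.47 and 0.30 on the log2 scale, and Selenoh and Selenos fell by 0.35 and 0.33. Genes of oxidative folding in the endoplasmic reticulum, where PRDX4 acts, had 5 of 17 tested genes up and 5 down, each near the share over all tested genes (35.6% higher and 29.1% lower). The oxidase genes Qsox1, Ero1a and Ero1b rose 2.21-fold, 1.74-fold and 2.13-fold, and Qsox2 was not called (log2 change 0.15, limma adjusted p = 0.195). Of the disulfide isomerase genes, Pdia6, P4hb, Pdia4 and Pdia5 fell by 0.59, 0.29, 0.39 and 0.63 on the log2 scale. Txndc5 rose by 0.17 (limma adjusted p = 0.00556) and Pdia3 was not called (log2 change 0.079, adjusted p = 0.0626). Among the remaining genes of the list, Txndc11 fell by 0.46 and Tmx4 rose by 0.23, a call lost with no filter (limma adjusted p = 0.0721). Tmx1, Tmx2, Tmx3, Vkorc1 and Vkorc1l1 were not called.

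**Figure D4:**
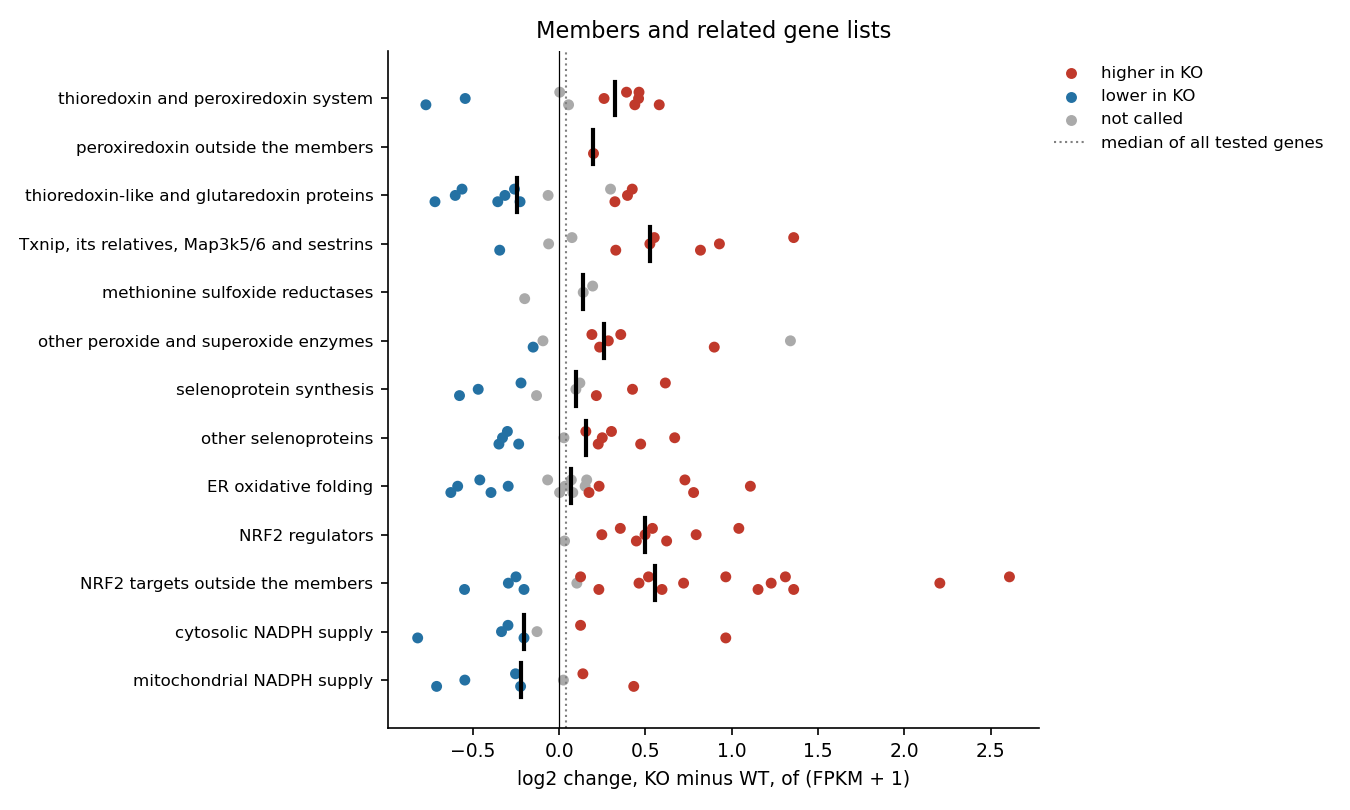
Log2 change, KO minus WT, of each tested gene of the members and of 12 related lists, on the log2(FPKM + 1) scale. Red points passed the test and were higher in KO, blue points passed and were lower, grey points did not pass, and black bars are medians; the NRF2 regulators include no blue point.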

How the data were processed

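Total RNA of 4T1 cells was sequenced in 2 DHODH KO and 2 WT samples, with table columns assigned to samples by title. The values are FPKM as deposited by the authors. The build GRCm39 and the tools fastp and HTSeq are named, per the submitters' processing notes. Aligner, gene annotation and strandedness: not given in the sources used here. RefSeq names pseudogenes of Txn1, Prdx1 and Prdx2, so their levels are uncertain where reads could be divided.

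Genes with a mean of at least 1 FPKM (10170) entered a limma-trend fit of log2(FPKM + 1) on genotype, without covariates (limma 3.58.1, R 4.3.3); this scale understates the change of low genes. Folds are ratios of mean FPKM. Named genes were the 10 members, Dhodh and up to 4 called genes with the smallest adjusted p of each related list, with regulators named by role. Genes named beyond these (Map3k6, Sesn2, Arrdc4, Sesn1, Qsox2, Pdia3, Txndc5, Sod2, Gpx1, Gpx3, Msrb1, Msrb3, Txnl4b, Glrx2, Ero1b, P4hb, Pdia5, Selenop, Nnt, Pgd, Taldo1, Tkt, Abcc1 and Trmt112) were chosen after their values were seen. Txndc11, Tmx1, Tmx2, Tmx3, Tmx4, Vkorc1 and Vkorc1l1 were also named after their values were seen. Members and lists were chosen with earlier results of these data known. Whole reads were recovered from FPKM steps, within 0.002 of a read, for 16515 genes (98.9%), to a limit of 20000 reads in the library with the fewest reads of that gene, and their number limits the precision; they served for depth and for an alternative fit. Promoters are RefSeq windows of GRCm38.p6, present for all 10 members. Tables and figures used pandas 2.3.3, NumPy 2.4.6, Matplotlib 3.10.9 and Python 3.11.15. Settings varied in turn were the pseudocount, filter, scaling and variance model, a replicate block, voom on recovered reads, and each library left out.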

Additional observations from a re-analysis of the deposited data

How the results depend on the processing

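All 8 called members kept their direction and their call in each alternative that gave a value, with adjusted p-values of at most 0.0194, and Txn2 was called in none. Over all settings the log2 change ran from -0.83 to -0.74 for Prdx3, from -0.63 to -0.46 for Prdx5 and from 0.53 to 0.63 for Prdx1. Prdx2, which was not called in any setting, changed sign with median-ratio scaling (-0.038, adjusted p = 0.454) and with voom on recovered reads (-0.044, adjusted p = 0.352). When single libraries were left out it lay between -0.049, without DHODH KO replicate 2, and 0.056. The cause was not tested. The fit on reads has 5 members higher in place of 6, as it holds no value for Prdx1. The genes called over the whole table ranged from 3165 to 3681 higher and from 2490 to 3350 lower, and the share of calls that were higher was 49.8% with median-ratio scaling, against 55.0%. Whether the replicate numbers pair the samples is not labelled. The differences between replicates correlated at 0.0463 across the genotypes, a value that cannot decide whether the samples were paired. The replicate block gave 3681 genes higher and 3001 lower and the same 6 and 2 members. Of 93 called genes among the members, the related lists and Dhodh, 74 were called in every setting and 19 lost the call in at least 1. With 2 libraries per genotype the spread of a gene rests largely on the variance shared across genes, and leaving out 1 library assumes that the lone library varies like the other genotype.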
